A study of Bos taurus with 6 samples.

Results

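The vascular endothelial growth factor (VEGF) and angiopoietin system was followed in bovine granulosa cells through 10 genes, chosen by symbol: the ligands VEGFA, VEGFB and VEGFC, the receptors FLT1 and KDR, the co-receptors NRP1 and NRP2, the ligands ANGPT1 and ANGPT2 and their receptor TEK. They were represented by 13 of the 43794 probes of a bovine oligonucleotide array, and by 10 of the 15216 genes named on it. The study asked how the duration of the FSH-stimulated growing phase alters the granulosa cell transcriptome. Multiparous beef cows received FSH every 12 h, for 4 days in the conventional FSH group and for 7 days in the long FSH group, with the same dose per injection. In both groups the follicles had been ablated to start a new wave, a progesterone device was in place, prostaglandin was given near the end of FSH, LH followed, and the ovaries were removed 24 h after LH. Conventional FSH is therefore the reference group, and no cow without FSH was on the arrays. Antral and scraped mural granulosa cells were collected from the 3 largest follicles of each cow, and their RNA was pooled in equal amounts and amplified. RNA of 3 of the 6 cows per group was hybridised, each long FSH cow together with a conventional FSH cow, on 2 arrays with the dyes exchanged. Arrays that hold the same extracts were averaged, so n = 3 cow pairs throughout.

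VEGF ligands are secreted proteins that act on tyrosine kinase receptors of endothelial cells, and they drive the growth and permeability of vessels. ANGPT1 activates TEK and steadies vessels, whereas ANGPT2 is known mainly as its context-dependent antagonist. In a growing follicle the vessels lie in the theca, outside the basement membrane, and the granulosa layer has none until it is invaded after the LH surge, so the granulosa cells are known chiefly as a source of ligands.

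The direction of every ratio is likely rather than settled. It follows the dyes in the design text of the series, which gives the same direction as the study's legends, but the dyes in the sample labels run the other way. If the labels were right, higher and lower would be exchanged in all that follows, and sizes, errors and p-values would stand. The exception is the authors' deposited table of ratios, used only as an alternative, which was turned by the labels' dyes. A reading is the signal of a group on an array, and it was called above background when it exceeded a detection limit, the mean of the 153 negative control spots in its channel plus 2 of their SDs. Between 41.8% and 51.4% of probes were above background per array and channel, and no spot was saturated. Probes above background in 3 or more of a group's 6 readings, in either group, were tested, which left 23480 probes standing for 9933 genes. Levels are log2 of the normalized intensity, and they compare cows at 1 probe only, except where levels of several probes were summed on the linear scale for a list of markers. A ratio is log2 of long FSH over conventional FSH.

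Of the 13 member probes, 9 were tested, standing for 8 genes, and FLT1 and NRP2 had no tested probe. Only the probes of VEGFB, VEGFC and the brightest of the 3 NRP1 probes were above background in all 12 readings. VEGFB and VEGFC, both secreted ligands, were down-regulated in the long FSH group by the study's threshold of an unadjusted p of 0.05 or less and at least a 2-fold difference, and no member was up-regulated. These 2 lower calls among 9 tested probes stand beside 1.46% of all tested probes called lower and 2.48% called higher (limma). By genes, 2 of 8 were lower, beside 2.02% of all tested genes lower and 3.39% higher. After Benjamini-Hochberg adjustment over all tested probes, limma called 0 members and 0 probes of any kind. At an unadjusted p of 0.05 or less it passed 2 member probes, and 2220 probes (9.45%) in all, and the smallest adjusted p of a member was 0.346. The median ratio of the 8 tested member genes was -0.21, with 3 genes above 0 and 5 below, beside a median of 0.03 for all tested genes. KDR and ANGPT2, both below 0, were tested only through the conventional FSH group. In the 3 cow pairs the members' median was -0.53, -0.54 and -0.16.

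**Figure D1:**
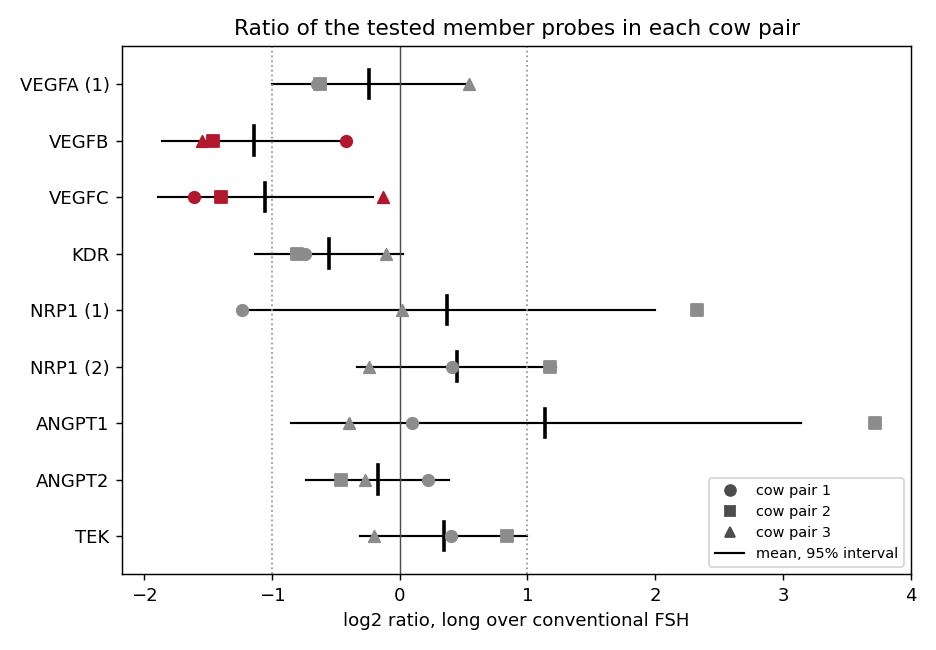
Log2 ratio of long FSH over conventional FSH for each tested member probe, with a point for each of the 3 cow pairs, a vertical tick for their mean and a line for its 95% interval. VEGFB, VEGFC and KDR lay below 0 in all 3 pairs, and NRP1 and ANGPT1 spread over more than 3 log2 units. KDR was tested only through the conventional FSH group.

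VEGFB was the member with the smallest p. It encodes a ligand of FLT1 and of the neuropilin NRP1, known for survival of vessels and for handling of fatty acids more than for sprouting. In the conventional FSH group its level was 9.77, 9.82 and 9.87 in cows 1, 2 and 3. In the long FSH group it was 9.34, 8.36 and 8.32. The conventional FSH cows lay close together, and every long FSH cow was below all of them. Groups without overlap were present in 6.33% of tested probes in the lower direction and 7.86% in the higher. The mean level was 9.82 ± 0.05 (SD, n = 3) against 8.68 ± 0.58 (SD, n = 3). The ratios of the pairs were -0.42, -1.46 and -1.55, a mean of -1.14 ± 0.63 (SD), or 2.21-fold lower in the long FSH group. Limma gave adjusted p = 0.346, a standard error of 0.29 and a 95% interval of -1.86 to -0.42. With the 6 arrays as replicates and the cow pair as a block, which counts arrays of the same extracts largely as separate, VEGFB had adjusted p = 0.031 in limma. The dye-swapped arrays differed by 0.07, 0.05 and 0.38 in the 3 pairs, less than the ratio itself in each pair. All readings were well clear of background, at 5.62 to 8.45 times the detection limit in the conventional FSH group and 2.08 to 4.12 times in the long FSH group. Pair 1 showed the smallest difference. The call was lost without pair 2 (-0.99) and without pair 3 (-0.94), where the mean fell just short of 2-fold.

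VEGFC encodes the ligand of FLT4 and KDR, known for lymphatic growth. Its level was 9.89, 10.27 and 8.62 in the conventional FSH cows. In the long FSH cows it was 8.28, 8.86 and 8.49. Cows 1 and 2 of the conventional FSH group stood above all others, while cow 3 lay between the long FSH cows, so the groups overlapped. The pair ratios were -1.61, -1.40 and -0.13, a mean of -1.05 ± 0.80 (SD), or 2.07-fold lower (limma adjusted p = 0.447, 95% interval -1.89 to -0.21). Pair 3 thus carried little of the difference, and its 2 arrays had opposite signs, 0.10 and -0.36. The 2 arrays of pair 1 had the same sign but different sizes, -2.13 and -1.09. The call was lost without pair 1 (-0.77), without pair 2 (-0.87) and without array 1, 2 or 6, where the mean was -0.88, -0.97 and -0.97. Without pair 3 it was -1.51 (limma adjusted p = 0.109).

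VEGFA encodes the principal VEGF of ovulatory follicles and acts on FLT1 and KDR. Its brighter probe read 7.83, 7.71 and 7.14 in the conventional FSH cows, and was above background in 5 of 6 readings. It read 7.18, 7.09 and 7.69 in the long FSH cows, in 4 of 6 readings. The groups overlapped fully, and pairs 1 and 2 moved opposite to pair 3 (-0.65, -0.62 and 0.54). The mean of -0.24 ± 0.68 (SD) did not pass the test (limma adjusted p = 0.751), and the upper bound of its 95% interval, 0.52, lay below a 2-fold higher level, while the lower bound was at about a 2-fold lower level. In pair 3 the dye-swapped arrays differed by 1.24, more than the mean of that pair. The other VEGFA probe was above background in 2 of 6 long FSH and 1 of 6 conventional FSH readings, and was not tested. Its pair ratios were -0.12, -0.04 and -0.00. The ratio of the main VEGF ligand was thus measured near the detection limit.

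**Figure D2:**
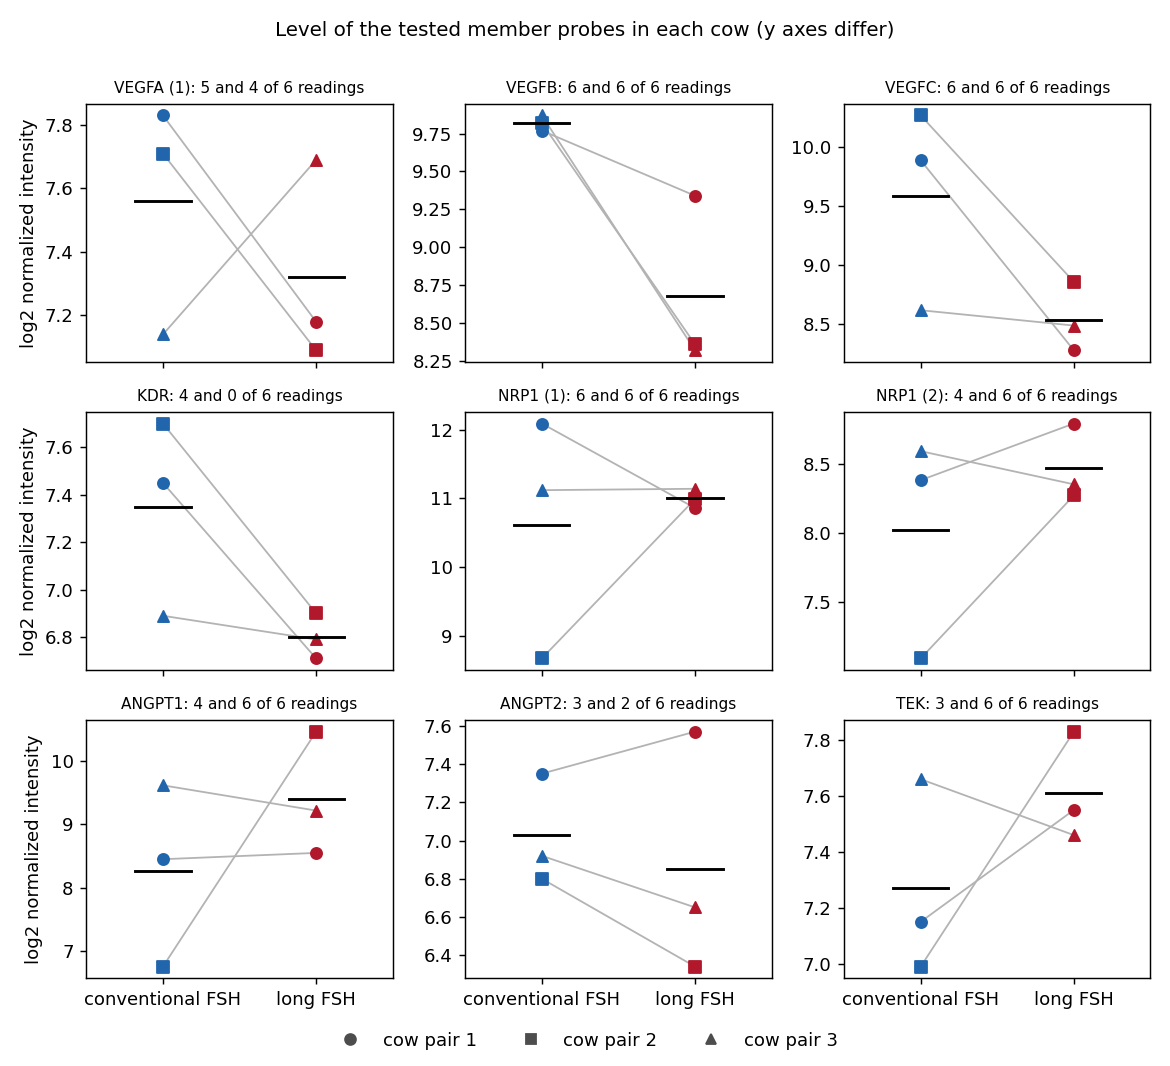
Log2 normalized intensity of the tested member probes in each of the 3 conventional FSH and 3 long FSH cows, with lines joining the cows hybridised together. VEGFB separated the groups (8.32 to 9.34 against 9.77 to 9.87), and conventional FSH cow 2 lay lowest for NRP1 and ANGPT1.

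The receptors were dim. FLT1, which binds VEGFA, VEGFB and placental growth factor, was above background in 0 of 12 readings, at 0.46 to 0.88 times the detection limit in the conventional FSH group and 0.53 to 0.71 times in the long FSH group. No fold is given for it. KDR, the main signalling receptor for VEGFA, was above background in 4 of 6 conventional FSH readings and in 0 of 6 long FSH readings. Its readings were 0.88 to 1.55 times the limit in the conventional FSH group and 0.72 to 0.95 times in the long FSH group. KDR was thus above the limit only in the conventional FSH group, where the level was 7.45, 7.70 and 6.89. The long FSH cows read 6.71, 6.90 and 6.79, which is a bound rather than a level. Long FSH cow 2 lay just above conventional FSH cow 3, so the groups overlapped there. The pair ratios were -0.74, -0.80 and -0.11, a mean of -0.55 ± 0.38 (SD), which did not pass the test (limma adjusted p = 0.545, 95% interval -1.13 to 0.03). Both conventional FSH readings of pair 3 were also below the limit, and no fold is given for KDR. VEGFB, VEGFC and KDR had 1 sign in all 3 pairs, lower in the long FSH group, as had 17.7% of tested probes, and no member had 1 sign in the higher direction, as had 18.1%. KDR was tested only through the conventional FSH group, where it was high, so its sign is not independent of the filter.

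**Figure D3:**
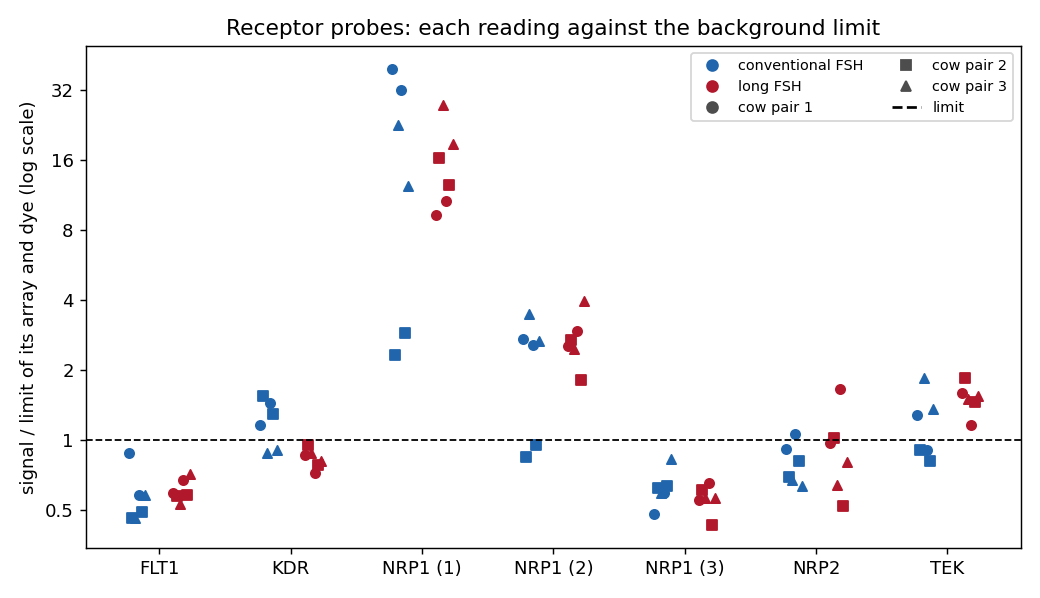
Signal of each receptor and co-receptor probe (FLT1, KDR, NRP1, NRP2, TEK) relative to the detection limit of its array and channel, on a log axis, with 6 readings per group and a dashed line where the signal equals the limit. FLT1 lay below the line in all 12 readings, and KDR rose above it in 4 conventional FSH readings.

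NRP1, a co-receptor for VEGF ligands and for class 3 semaphorins, had a brightest probe that reached 39.7 times the detection limit. It read 12.09, 8.67 and 11.12 in the conventional FSH cows. In the long FSH cows it read 10.86, 10.99 and 11.14. The long FSH cows were alike, and the conventional FSH cows were not, since cow 2 lay 2.19 below the next lowest cow. The pair ratios were -1.23, 2.33 and 0.02, and the mean of 0.37 ± 1.80 (SD) did not pass the test (limma adjusted p = 0.819, 95% interval -1.26 to 2.00). The spread between pairs was larger than at 98.6% of tested probes. The second NRP1 probe gave 0.41, 1.18 and -0.24, a mean of 0.45 ± 0.71 (SD, limma adjusted p = 0.625). It was also lowest in conventional FSH cow 2, by 1.18. In pair 1 the 2 probes had opposite signs, and the first minus the second was -1.64, against 1.15 and 0.27 in the other pairs. The third NRP1 probe was above background in 0 of 12 readings. Without pair 2 the ratio of the brightest probe turned to -0.61. NRP2, the co-receptor known for VEGFC, was above background in 2 long FSH and 1 conventional FSH readings of 6 each, and was not tested. Its pair ratios were 0.37, -0.07 and 0.11.

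ANGPT1 is the activating ligand of TEK. Its level was 8.45, 6.75 and 9.62 in the conventional FSH cows, above background in 4 of 6 readings. It was 8.55, 10.47 and 9.22 in the long FSH cows, in 6 of 6. The groups overlapped, and the mean rested on pair 2, where conventional FSH cow 2 was the lowest of all cows and long FSH cow 2 the highest. The pair ratios were 0.10, 3.72 and -0.40, a mean of 1.14 ± 2.25 (SD), which did not pass the test (limma adjusted p = 0.626, 95% interval -0.85 to 3.14). Both readings of conventional FSH cow 2 were below the detection limit, at 0.57 and 0.82 times, so the ratio of pair 2, and the mean with it, was taken against undetected signal. Without pair 2 the ratio turned to -0.15. Conventional FSH cow 2 also stood alone across the array: it was at least 1 log2 unit below every other cow at 346 tested probes and above every other cow at 352, against at most 212 and 267 for any other cow. Its mean correlation with the other cows, at 0.915, was the lowest. The part of this sample in the ANGPT1 and NRP1 values was not tested.

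ANGPT2 read 7.35, 6.80 and 6.92 in the conventional FSH cows and 7.57, 6.34 and 6.65 in the long FSH cows, with 3 and 2 of 6 readings above background. The groups overlapped, and the mean ratio of -0.17 ± 0.35 (SD) did not pass the test (limma adjusted p = 0.763, 95% interval -0.73 to 0.39). TEK, the receptor of both angiopoietins, was above background in 6 of 6 long FSH and 3 of 6 conventional FSH readings. Its level was 7.55, 7.83 and 7.46 in the long FSH cows and 7.15, 6.99 and 7.66 in the conventional FSH cows. Conventional FSH cow 3 lay between the long FSH cows, and the pair ratios were 0.40, 0.84 and -0.20. The mean of 0.35 ± 0.52 (SD) did not pass the test (limma adjusted p = 0.640, 95% interval -0.31 to 1.00).

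The relatives of these ligands and receptors were mostly below detection. Of 12 listed genes, 11 had a probe and 4 were tested, of which 0 were higher and 1 was lower by the study's threshold, with a median ratio of -0.33. The gene called lower was PGF, the placental growth factor, which binds FLT1. Its level was 10.37, 7.32 and 8.83 in the conventional FSH cows and 9.17, 7.18 and 7.09 in the long FSH cows. The groups overlapped, but each long FSH cow was below its partner in the mean of their arrays, by -1.19, -0.14 and -1.74 (mean -1.03 ± 0.81, SD, limma adjusted p = 0.459). In pair 2 the dye-swapped arrays had opposite signs, -0.39 and 0.10. PGF was above background in 5 of 6 readings of each group. The PGF call was lost without pair 1 (-0.94), without pair 3 (-0.67), without array 2 (-0.95) and without array 6 (-0.85). FLT4, the VEGFC receptor, and TIE1, the partner of TEK, were among the 7 genes with a probe that were not tested. Among 17 listed neuropilin partners (class 3 semaphorins, plexins and the adaptor GIPC1), 6 were tested and 1 was higher. SEMA3E, a semaphorin known to repel vessels by binding PLXND1 directly, read 7.61, 8.97 and 8.23 in the long FSH cows and 6.54, 6.50 and 7.42 in the conventional FSH cows. All long FSH cows lay above all conventional FSH cows, and the ratio was 1.45 ± 0.90 (SD, limma adjusted p = 0.346). SEMA3E was above background in 6 of 6 long FSH but only 3 of 6 conventional FSH readings. Both readings of conventional FSH cow 2 were below the detection limit, so the largest pair ratio, 2.48 in pair 2, was taken against undetected signal. Without pair 2 the SEMA3E ratio was 0.94 and missed 2-fold.

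The oxygen-sensing pathway, in which the HIF factors raise VEGFA transcription under hypoxia, was well covered, with 20 of 22 listed genes tested. Of these, 2 were higher, 1 was lower and 17 did not pass, and the median ratio was 0.16. BNIP3L and BNIP3, which mark mitochondria for removal, were higher. BNIP3L read 15.78, 15.78 and 15.71 in the long FSH cows and 14.24, 13.39 and 14.54 in the conventional FSH cows. Its groups did not overlap (ratio 1.70 ± 0.62, SD, limma adjusted p = 0.214). The size of the BNIP3L ratio depended on the dye. The swapped arrays gave 2.43 and 0.64 in pair 1, 3.43 and 1.35 in pair 2, and 1.97 and 0.38 in pair 3. BNIP3 had a ratio of 1.01 ± 1.03 (SD, limma adjusted p = 0.528), and its call was lost without pair 1 (0.61), without pair 2 (0.83) and without array 4, 5 or 6 (0.69 to 0.84). DDIT4, an inhibitor of mTORC1, was lower, at -1.34 ± 1.37 (SD, limma adjusted p = 0.513). The DDIT4 call was lost without pair 2 (-0.58), without pair 3 (-1.51, with an unadjusted p above the threshold) and without array 4 (-1.15).

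Downstream of the receptors, 16 of 25 listed signalling genes were tested, 2 were higher and 0 lower, and the median ratio was 0.25. DOK2, an adaptor known to bind TEK, was higher by 1.21 ± 0.82 (SD, limma adjusted p = 0.392), with 6 of 6 long FSH and 2 of 6 conventional FSH readings above background, so that it too was tested only through its high group. The DOK2 call was lost without pair 3 (0.77). NCK1, an adaptor of activated receptors, was higher by 1.02 ± 0.87 (SD, limma adjusted p = 0.483). NCK1 lost its call without pair 1 (1.23, with an unadjusted p above the threshold), without pair 2 (0.52) and without array 2, 4 or 6 (0.84 to 0.94).

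Among 20 tested of 31 other vessel growth factors and receptors, 3 were higher and 0 lower, with a median ratio of 0.01. JAG1, a Notch ligand that acts beside VEGF in sprouting, read 10.32, 9.85 and 10.63 in the long FSH cows and 7.73, 8.10 and 8.36 in the conventional FSH cows. The groups lay well apart, and the ratio of 2.20 ± 0.43 (SD) had an adjusted p no larger than that of any other probe (limma adjusted p = 0.127). PDGFA, a growth factor for mesenchymal and mural cells, read 7.67, 8.26 and 8.59 against 6.33, 6.76 and 7.13. PDGFA was above background in 6 of 6 long FSH and 1 of 6 conventional FSH readings, so it was tested only through the group where it was high, and its pair ratios of 1.34, 1.50 and 1.46 (limma adjusted p = 0.180) were taken mostly against undetected signal. The dye-swapped arrays gave 1.85 and 1.15 in pair 2 and 0.88 and 2.05 in pair 3. CXCR4, the receptor of the chemokine CXCL12, had a ratio of 2.62 ± 1.97 (SD, limma adjusted p = 0.374), and long FSH cow 3, at 12.05, stood above the other long FSH cows at 9.33 and 8.83. Without pair 3 the CXCR4 ratio was 1.49. The leukocyte markers CD163, CD48 and AIF1 were also highest in pair 3 (3.04, 2.90 and 3.47). PTPRC, a leukocyte marker above background in all 12 readings, was lowest in pair 3 (0.21, 0.66 and -0.57 in pairs 1, 2 and 3). The part of leukocyte RNA in CXCR4 was not tested. Of 10 tested inhibitors of vessel growth and matrix regulators (15 listed), 0 were higher and 1 was lower by the brightest probe, with a median of -0.04. CD36 did not pass by its brightest probe (0.18), but its other tested probes gave 1.93 and 0.53 (limma adjusted p = 0.322 and 0.512). The probe at 1.93 passed the study's threshold as higher, with pair ratios of 1.87, 3.18 and 0.75 and 4 of 6 conventional FSH readings above background. The lower gene was VCAN, a matrix proteoglycan cleaved by ADAMTS1 at ovulation, which read 9.25, 8.93 and 8.32 in the conventional FSH cows and 8.12, 7.71 and 7.19 in the long FSH cows. The VCAN groups did not overlap, and the pairs agreed closely (-1.13, -1.22 and -1.14, limma adjusted p = 0.203). Over the 6 lists, 8 of 76 tested genes were higher and 3 were lower, beside 3.39% and 2.02% of all tested genes, and the 8 include PDGFA and DOK2, which were tested only through the group where they were high.

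The endothelial markers bear on the receptor readings. Of 17 listed, 6 were tested, 0 passed, and their ratios ranged from -0.43 to 0.40 with a median of -0.13. Their detection was uneven. PECAM1, TIE1 and PLVAP, which define endothelium, were above background in 0 of 12 readings. CLEC14A, an endothelial surface lectin, was above background in all 12 readings. ROBO4 was above background in 5 of 6 readings of each group, EGFL7 in 5 long FSH and 4 conventional FSH readings, and CDH5, the endothelial cadherin, in 4 and 3. Their smallest unadjusted p belonged to ERG (0.40 ± 0.19, SD, limma adjusted p = 0.558) and to CLDN5 (-0.43 ± 0.35, SD, adjusted p = 0.573). ERG was above background in 5 long FSH and 2 conventional FSH readings, and CLDN5 in 2 and 4, so each was tested only through its high group. The summed level of the tested endothelial markers, most of it from CLEC14A (pair ratios -0.06, -0.13 and -0.27), was 11.10 to 11.31 in the long FSH cows and 11.20 to 11.54 in the conventional FSH cows, so these ranges overlapped, and the pairs differed by -0.06, -0.10 and -0.23. KDR differed by more than these sums in pairs 1 and 2 and by less in pair 3, and the part of endothelial RNA in the KDR readings was not tested. None of 4 lymphatic markers and none of 3 red blood cell markers was tested, because too few of their readings were above background.

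Other cell types and the granulosa cells themselves differed between cows. Of 4 tested pericyte and smooth muscle markers among 8, CNN1 was higher (1.78 ± 1.85, SD, limma adjusted p = 0.505) and MCAM was lower (-1.80 ± 0.45, SD, adjusted p = 0.180), their summed level was 11.81 to 12.59 in the long and 11.49 to 12.61 in the conventional FSH cows, and RGS5 was above background in 0 readings. CNN1 had pair ratios of 2.83, -0.35 and 2.87, and 4 of 6 conventional FSH readings above background. Both readings of conventional FSH cow 1 were below the detection limit. The CNN1 call was lost without pair 1 (1.26) and without pair 3 (1.24). Of 9 tested leukocyte markers among 12, LYZ was higher (1.52 ± 1.27, SD, limma adjusted p = 0.433), but not without pair 3 (0.87), and it was tested only through the long FSH group, with 6 long FSH and 2 conventional FSH readings of 6 above background. The mean ratio was above 0 for all 9, but CD74, CD14, CD163, CD48 and AIF1 were, like LYZ, tested only through the long FSH group. Their signs are therefore not independent of the filter. The median of all 9 was 0.21, 0.35 and 2.59 in the 3 pairs. Their summed level was 11.73 to 13.12 in the long and 11.25 to 12.58 in the conventional FSH cows, and CSF1R and ITGAM were above background in 0 readings. Of 5 tested theca markers among 6, DCN was lower (-1.20 ± 1.27, SD, limma adjusted p = 0.528), and CYP17A1, the defining steroid enzyme of theca, was above background in 2 of 12 readings. The DCN call was lost without pair 1 (-1.45, with an unadjusted p above the threshold), without pair 2 (-0.48) and without array 4 or 6 (-1.08 and -1.05). The summed theca level was 13.32 to 13.45 in the long FSH cows and 10.80 to 13.87 in the conventional FSH cows, with pair differences of 1.14, 2.52 and -0.42. This sum was carried by PTCH1, a hedgehog receptor, which read 11.59, 8.90 and 13.74 in the conventional FSH cows and 13.19, 13.20 and 13.31 in the long FSH cows. DCN went the other way in pair 2 (-2.64), and the median over the tested theca markers was -0.09, 0.06 and -0.34 in the 3 pairs. The part of theca RNA in the ANGPT1 ratios was not tested. Of 10 granulosa markers, 8 were tested, although FOXL2 was above background in 0 readings. NR5A2 was higher by its brightest probe (1.30 ± 0.66, SD, limma adjusted p = 0.312), but its other tested probes gave -0.27 and 0.21 and did not pass. GJA1 (-2.24 ± 1.67, SD, limma adjusted p = 0.379) and CYP19A1 (-1.81 ± 1.35, SD, adjusted p = 0.390) were lower. The summed level of the 8 tested granulosa markers was 15.48 to 15.70 in the long and 15.78 to 16.39 in the conventional FSH cows, with pair differences of -0.68, -0.84 and -0.30. INHA, an inhibin subunit and the brightest of these markers, had pair ratios of -0.61, -0.58 and -0.77, whereas GATA4, a granulosa transcription factor, had 0.63, 1.41 and 0.19. The dye-swapped arrays of INHA disagreed, with 0.06 and -1.29 in pair 1, 0.28 and -1.44 in pair 2, and -1.10 and -0.43 in pair 3. Those of GATA4 had opposite signs in pair 3 (-0.06 and 0.44). The part of the granulosa marker differences in the VEGFB and VEGFC values was not tested. In such bulk RNA, fewer cells of a type and less RNA per cell cannot be told apart.

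**Figure D4:**
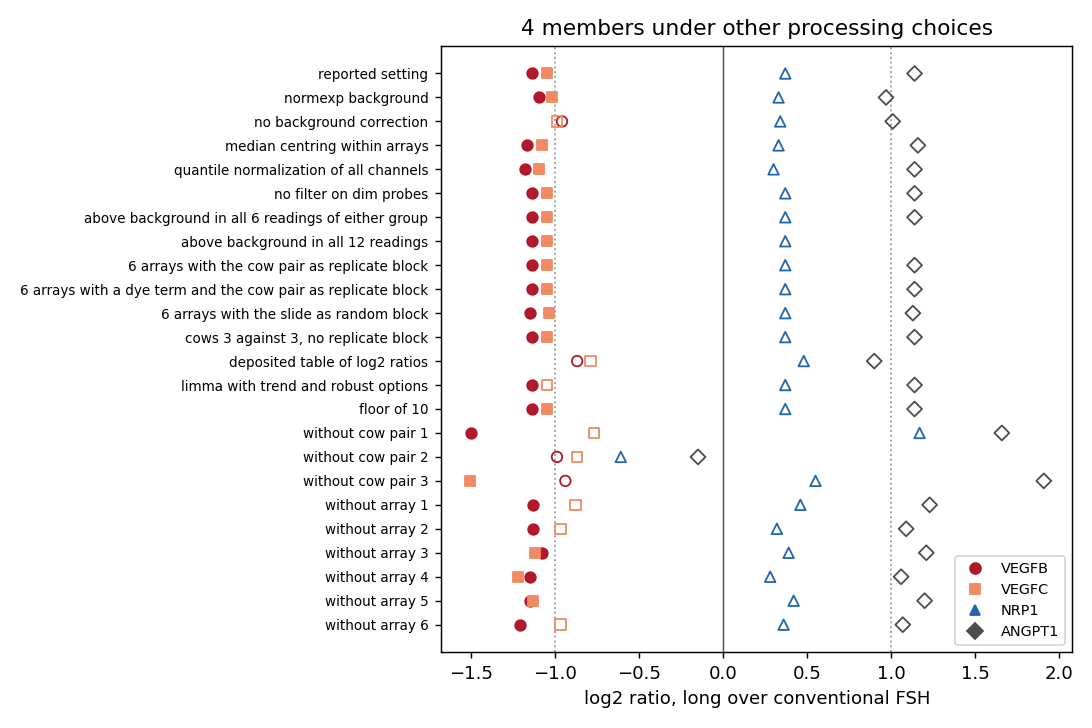
Mean log2 ratio of long FSH over conventional FSH of VEGFB, VEGFC, NRP1 and ANGPT1 in each processing setting that gave a value, filled where the probe passed the study's threshold. VEGFB ranged from -1.50 to -0.87 and VEGFC from -1.51 to -0.77, while NRP1 and ANGPT1 crossed 0.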

How the data were processed

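Array hybridisations of granulosa cell RNA from 3 long FSH and 3 conventional FSH cows were compared. The authors deposited, for each of 6 arrays, the scanner's median foreground and median local background intensity of every spot at both dye wavelengths, with no correction or normalization. They also deposited a table of log2 ratios made with FlexArray (version 1.6.1 in the submitters' processing notes) from background-subtracted medians, with 0.5 in place of negative values, then loess within and quantile scaling between arrays. The table served only as an alternative, because each of its columns follows the scanner ratio of the dye-swap partner (r = 0.77 to 0.85), and its scale and direction are not given in the sources used here. The labels' dyes were used to turn it, the opposite of the rule used for the scanner ratios. Since its columns follow the swap partners, this gave it the direction of the scanner ratios, so its signs do not test that direction. The medians of its columns lie between -0.0035 and 0.0000. No genome build is given in the sources used here, so no position is stated.

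Here, each median was reduced by its local background, any signal not above 0 was given 0.5 (no member reading was), ratios were normalized by loess within arrays with control spots at weight 0, and mean intensities by quantile between arrays. Ratios were turned to long over conventional FSH by the design text. Arrays of 1 dye orientation correlated with r = 0.10 to 0.44, and the swapped arrays of a pair with 0.24 to 0.65. Limma 3.58.1 in R 4.3.3 was fitted to the 3 pair means over all 23480 tested probes, with Benjamini-Hochberg adjustment over all of them. Each gene was counted by its brightest tested probe. Symbols came from the array annotation, in which 21790 of 43794 probes have 1 gene symbol, 0 have several and 22004 have none, with 982 older symbols renamed. The cows of a pair were different animals that shared arrays. Within a pair, the 2 cows' departures from their group means correlated at r = 0.260, 0.153 and 0.207 across probes, and those of unpaired cows at -0.013 or less. The number of arrays limits the precision, and an exact permutation test of 3 cows against 3 that ignores the pairs could not go below p = 0.1. The 3 pairs allow fewer arrangements, so an exact test that kept them would have a higher floor.

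The members and the gene lists were chosen with earlier results of these data known, from general knowledge. Every probe of every member was named, and from each list the up to 4 genes past the study's threshold with the smallest p or, where none passed, the 2 with the smallest p. INHA, GATA4, PTCH1, CYP17A1, CLEC14A, ROBO4, EGFL7, CDH5, CD163, CD48, AIF1, PTPRC, CD74, CD14, CD36 and markers or relatives named for their lack of signal were chosen after their values were seen. The scripts were tested on simulated data. The alternatives were other background corrections, normalizations, filters and floors, arrays as replicates with a block for cow pair or slide, unpaired cows, the deposited table, limma with trend and robust options, gene means over probes, and leaving out each pair or array.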

Additional observations from a re-analysis of the deposited data

How the results depend on the processing

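The number of member probes called, 2 as reported, was 0 without background correction, 0 in the deposited table of log2 ratios and 1, VEGFB, in limma with trend and robust options. Leaving out a cow pair or an array gave 0 to 2. The counts of member genes were the same, 0, 0, 1 and 0 to 2. The pathway genes past the study's threshold, 11 as reported, numbered 6 where a probe had to be above background in all 12 readings, 4 in the deposited table and 4 with trend and robust options. VEGFB passed in 19 of 23 other settings and VEGFC in 15 of 23, and neither changed sign, although the sign in the deposited table rests on the rule that turned it. NRP1 ran from -0.61 to 1.17 on leaving out a pair or array, and ANGPT1 from -0.15 to 1.91, both lowest without pair 2. ERG, an endothelial marker, turned to -0.01 in the deposited table. Of all tested probes, 582 were higher and 342 lower as reported, 136 and 283 with trend and robust options, 313 and 235 in the deposited table, and 1068 and 742 without pair 3. The share of calls that were higher fell from 63.0% to 32.5% with trend and robust options. Other scalings moved the median ratio of all probes by at most 0.024. The causes of these shifts were not tested. Pair 3 alone lay on slides of its own, so the fit without it is also the fit within the slides shared by pairs 1 and 2.

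With all 6 arrays as replicates and the cow pair as replicate block, limma called 625 probes after adjustment, against 0 as reported, and the 2 members stayed at 2. In this fit VEGFB had an adjusted p of 0.031, with 0.047 when a dye term was added, and VEGFC had 0.101. These fits count arrays of the same extracts largely as separate replicates, since the correlation within a pair was estimated at 0.145. With cows compared 3 against 3 and no replicate block, the members were VEGFB and VEGFC, with adjusted p of 0.484 and 0.626. FLT1 and the third NRP1 probe were below the detection limit throughout. Both VEGFA probes, KDR, the second NRP1 probe, NRP2, ANGPT1, ANGPT2 and TEK had readings on both sides of that limit.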
